A study of Mus musculus with 142 samples.

Results

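The domain described here is the stretch of mouse chromosome 16 from 49500 to 50150 kb (mm10), which lies to the right of the Dppa2/4 replication domain and holds the genes Ift57 and Cd47. Its members are the 13 windows of 50 kb within these coordinates, out of 49264 autosomal windows. Each window is named by its start in kb. All were measured on both homologs of F121-9, a hybrid mouse embryonic stem cell (mESC) line with 1 M. musculus and 1 M. castaneus genome, grown in 2i and LIF, so that sequence variants tell the homologs apart. E/L Repli-seq gives replication timing (RT) as log2(E/L), the log2 ratio of DNA labelled with BrdU for 2 h in early over late S phase. Positive values are early and negative values are late. The files hold 66 libraries from 53 clones of 26 cell lines, and 65 libraries from 52 clones have both homologs in this domain. Clone 18 of ∆COSN1.2.8k had no castaneus value on this chromosome, so it enters only the musculus levels.

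All clones carry CRISPR-mediated deletions in the Dppa domain and none is unmodified on both homologs. A cell line is named by the elements it lost. Z, A, B and C are segments of the Dppa domain, OSN is a site co-bound by Oct4, Sox2 and Nanog, and TSS is a transcription start site. In 43 clones the deletions are on musculus only, from single sites (COSN1, BTSS) to combinations such as Z.B.C and A.BOSN12.BTSS.COSN123. In 2 clones, CTSS clone C4 and CR11.8k clone 50, the deletion is on castaneus only. In 8 clones both homologs are deleted. Of these, A.B.COSN123 clone 5A.7 and AOSN.B.COSN123 clones 2A.2, 3C.4 and 5A.6 lost B on castaneus, BTSS.CTSS clone C11 lost BTSS on castaneus, and ATSS.BTSS.CTSS clones A1, A8 and C4 lost ATSS on castaneus. Since 51 of 53 clones were edited on musculus, the subspecies of a homolog and the edit on it go together in most of the data, and the other 2 classes are shown apart. Every clone comes from the same hybrid line. Per the paper, COSN12 and COSN123 were made in a COSN1 line, and a single COSN123 clone with all its deletions on the same homolog was recovered. Deletions of A, AOSN, B and BOSN were then put into the COSN123 background, and the BTSS deletion was also made in a CTSS background. Clones of different lines can therefore share an ancestor clone, while the tests below treat clones as independent units. Separate cultures are described for the libraries of COSN123 clone A10. For the other clones the labels only number the libraries as replicates, so p-values measure only the spread between these clones.

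Replication timing is the order in which chromosome domains are copied during S phase. Early domains tend to be gene-rich and transcribed, and late domains tend to lie at the nuclear lamina. A hybrid line lets both homologs be read in the same nucleus, where they share the same trans-acting factors. Cd47 is a cell surface protein that binds thrombospondin-1 and the receptor SIRPα on macrophages, where it acts as a "don't eat me" signal. Ift57 is a subunit of intraflagellar transport complex B, which carries cargo along cilia. Transcription was not measured in these libraries. The paper measured nascent transcription by BrU-seq in some of its clones, and those data were not used here. The expression of these genes and of stem cell markers was therefore not checked.

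Ift57 spans 49699233 to 49765126 on the plus strand, and Cd47 spans 49800533 to 49915010 on the plus strand (GENCODE vM21). Of 10 annotated Cd47 transcripts, 9 start in the window at 49850 kb, among them the APPRIS principal isoform (start at 49855645), and 1 starts in the window at 49800 kb. The window at 49850 kb is therefore called the Cd47 window, and that at 49650 kb the Ift57 window, since Ift57 starts in its last kilobase. The antisense transcript Gm15518 (49758576 to 49798870, minus strand) lies between both genes and overlaps the end of Ift57, and the processed pseudogene Gm8824 (50111073 to 50112062) lies in the last window. The windows at 49500 to 49650 kb and from 49950 kb on hold no protein-coding sequence apart from the Ift57 start. The GC content of the 13 windows was 38.4% to 42.9% (median 41.5%), against a median of 42.1% over all tested windows.

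No deletion touches this domain. The nearest, the full C element, ends 879.6 kb to the left of it, and the farthest, Z-OSN, ends 1196 kb to the left. The guides below made the deletions on the castaneus homolog, which set the castaneus-only and the doubly deleted clones apart from the rest. They are 5′ to 3′, with the PAM in capitals. C-RIGHT-G1 with C-OSN-1-G1 made CR11.8k, C-TSS-G1 with C-OSN-1-G1 made CTSS, and the B, B-TSS and A-TSS pairs made the deletions of those names.
C-RIGHT-G1: tgaatgtgtgagacatgcgaAGG
C-OSN-1-G1: gagtaactcaggcaaaacgtTGG
C-TSS-G1: ttctggccatgtttggttagAGG
B-G1: cacgtacacagctgcggtagTGG
B-G2: tcagagacggaatcgcatcaTGG
B-TSS-G1: cacgcctacgtccacgcgtaCGG
B-TSS-G2: tggaaactcacgaattcgcgTGG
A-TSS-G1: tagacactctgtaacacagaAGG
A-TSS-G2: ctggcttccgaggaactgcgTGG
All lie on chromosome 16 (mm10), from A-TSS-G1 at 48309943 to 48309965 (plus strand) to C-OSN-1-G1 at 48613166 to 48613188 (minus strand), and each matched the reference at its listed position. Of 27 guides listed for the deletions, none had a site with an NGG PAM and 3 or fewer mismatches in its 20 bases within the domain, and the closest site had 5 mismatches. Only the mm10 reference was searched, so sites made by sequence variants of either homolog were not covered.

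In every clone the musculus homolog of the domain replicated earlier than the castaneus homolog. The mean of musculus over the 13 windows was −0.13 ± 0.19 (SD, n = 53 clones), from −0.75 to 0.23 with a median of −0.12. The mean of castaneus was −0.55 ± 0.21 (SD, n = 52 clones), from −1.27 to −0.09 with a median of −0.54. The ranges of both homologs overlapped, but the musculus minus castaneus difference within a clone was positive in 52 of 52 clones, at 0.42 ± 0.13 (SD), from 0.09 to 0.76. Library by library it was positive in 65 of 65.

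The musculus curve rose from −0.78 in the first window to a highest mean of 0.13 ± 0.26 (SD, n = 53) at 49950 kb, and was above 0 from 49750 to 50050 kb. The castaneus curve rose from −1.14 to a highest mean of −0.27 ± 0.24 (SD, n = 52) at 50000 kb and never reached 0. Single clones showed the same: 43 of 52 clones had a window above 0 on musculus, and 8 of 52 had one on castaneus. The window of the highest value lay at a median of 49900 kb on musculus and 50000 kb on castaneus. It lay further left on musculus in 33 clones, in the same window on both homologs in 11 and further left on castaneus in 8. Against all tested windows of the genome, the Cd47 window was near the middle on musculus, with 49.2% of windows later, and lower on castaneus, with 35.8% of windows later.

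**Figure D1:**
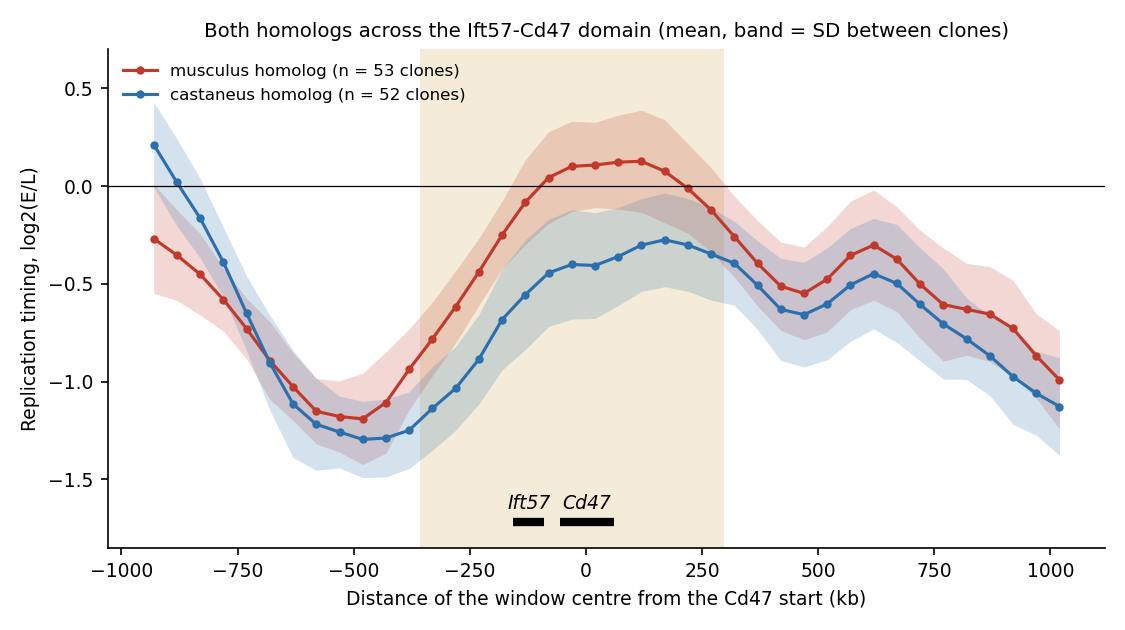
Mean RT (log2(E/L)) of the musculus and castaneus homologs per 50 kb window against the distance from the Cd47 start in kb. Bands are the SD between clones, the shaded strip is the domain and bars mark both genes. The musculus curve lies above the castaneus curve through the whole strip and crosses 0, and the castaneus curve peaks at −0.27.

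On the mean over all clones the difference between the homologs was largest in the Cd47 window. In single clones the largest difference lay there in 9 of 52, at a median of 49800 kb (49500 to 49950), and in the mean of the castaneus-only clones it lay at 49750 kb (0.45, against 0.40 in the Cd47 window). In the Cd47 window the mean of musculus was 0.11 ± 0.22 (SD, n = 53), from −0.58 to 0.52, and that of castaneus was −0.41 ± 0.27 (SD, n = 52), from −1.51 to 0.07. The musculus minus castaneus difference was 0.52 ± 0.16 (SD, n = 52), from 0.12 to 0.92, and positive in 52 of 52 clones (limma, Benjamini-Hochberg adjusted p = 2.33e-30). In the Ift57 window musculus was at −0.25 ± 0.17 and castaneus at −0.68 ± 0.26, and the difference of 0.44 ± 0.21 (SD, n = 52) ran from −0.13 to 0.80 and was positive in 50 of 52 clones (adjusted p = 1.32e-21). The window of Gm15518 at 49750 kb had a difference of 0.49 ± 0.19 (SD, n = 52), positive in all 52 clones. That of Gm8824 at 50100 kb had the lowest of the 13, 0.23 ± 0.16 (SD, n = 52), positive in 49.

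A window was called earlier on musculus where the adjusted p over all tested windows was at or under 0.05 and the mean difference at least 0.25 on the log2(E/L) scale. By this rule 12 of the 13 windows were called, against 9.59% of 39541 windows over the autosomes, and 11.6% were called earlier on castaneus. The domain was drawn with its allelic difference already known, so the count describes it and tests nothing. Adjusted p-values of the called windows lay between 2.33e-30 and 3.73e-19. The window at 50100 kb passed the p threshold (3.49e-14) and missed the size. Without a size, 65.6% of the 39541 windows passed the p threshold in either direction, so passing it does not set a window apart. At a size of at least 0.5, the windows at 49800 and 49850 kb were called, 2 of 13, against 2.71% of all windows. Of all tested windows 2.486% had a larger mean difference than the Cd47 window, and 10.8% had a larger one than the window at 50100 kb.

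On the mean curve the difference of at least 0.25 ran from 49450 to 50100 kb, a length of 650 kb that starts 1 window before the domain and stops 1 window before its end. It was 0.21 at 49400 kb, 0.31 at 49450 kb, 0.36 in the first window of the domain and 0.43 in the next. On the right it fell from 0.36 at 50000 kb to 0.29 at 50050 kb, 0.23 at 50100 kb and 0.14 at 50150 kb. The start and the end were both gradual, over several windows, and the authors smoothed the curves over 300 kb, which widens any edge. At a size of 0.10 the run was 1250 kb long (49350 to 50600 kb), and at 0.5 it was 100 kb (49800 to 49900 kb). In single clones, a run of at least 0.25 held the Cd47 window in 50 of 52. The exceptions were A.COSN123 clone C9 (0.22 in the Cd47 window) and COSN12 clone D3 (0.12). The 50 runs started at a median of 49500 kb (49200 to 49850) and ended at a median of 50100 kb (49900 to 50550). Their length was 100 to 1100 kb with a median of 600 kb. In 23 of 50 the run started left of the domain, and in 8 it ended to the right of it.

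On the rising left side the same level was reached further right on castaneus. A level of −0.5 was crossed at 49607.9 kb on the mean musculus curve and at 49749.9 kb on the mean castaneus curve, with positions interpolated between window centres. In the 48 clones where both curves crossed this level, the castaneus crossing lay to the right in 48 of 48, by 150.1 ± 85.8 kb (SD, n = 48), from 16.7 to 428 kb. A homolog with lower values on a rising stretch crosses any level further right, so this gives the level difference in kb and does not show a moved border. Zero was crossed at 49757.8 kb on the mean musculus curve.

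Averaged over 650 kb, the flanks differed less between the homologs than the domain did, but the left flank holds windows of both signs, with means from −0.57 to 0.31. On the left, from 48850 to 49500 kb, the musculus minus castaneus difference was −0.09 ± 0.15 (SD, n = 52 clones), and on the right, up to 50800 kb, 0.14 ± 0.07. The domain exceeded its left flank by 0.51 ± 0.20 (SD), in 51 of 52 clones, and its right flank by 0.28 ± 0.12, in 50 of 52. With flanks of 300 kb the excess over the left flank was 0.28 ± 0.18. No p is given for this, since the domain was drawn where the difference is high. On the right the difference stayed positive in 51 of 52 clones at a low level, and it was 0.15 ± 0.12 (SD, n = 52) in the window of the start of Bbx, an HMG-box gene, and 0.10 ± 0.14 in that of Ccdc54. To the left the sign turned within the late stretch before Dppa, where the mean difference curve crossed 0 at 49168.4 kb. It was −0.19 ± 0.21 (SD, n = 52) at Myh15, a myosin heavy chain, and −0.37 ± 0.29 at Cip2a, an inhibitor of the phosphatase PP2A, and Dzip3, a ubiquitin ligase. It was −0.57 ± 0.34 at Retnlg and −0.65 ± 0.39 at Retnla and Retnlb, which encode resistin-like secreted proteins, and −0.76 ± 0.49 at Trat1, a T cell receptor adaptor. At Morc1, a germline silencing factor, and Gm5485 it was −0.57 ± 0.51, and it was −0.52 ± 0.45 at Dppa2 and −0.52 ± 0.42 at Dppa4, which activate early embryonic genes. Genes that share a window share its value. Of the 15 protein-coding genes that start between 48000 and 51000 kb, these 11 to the left of the domain were later on musculus in the mean of all clones, and Ift57, Cd47, Bbx and Ccdc54 were earlier. Most clones are deleted on musculus, and the mean of the 2 castaneus-only clones was positive at Trat1 (0.25), Retnla and Retnlb (0.17), Retnlg (0.10), Dzip3 and Cip2a (0.29) and Myh15 (0.19). It was −0.0038 at Dppa2, −0.04 at Dppa4 and −0.08 at Morc1 and Gm5485, while at Ift57 (0.43), Cd47 (0.40), Bbx (0.20) and Ccdc54 (0.14) its sign was that of all clones.

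The classes differed in sign in the left flank and had the same sign in the domain. In the left flank the mean difference was −0.09 ± 0.14 in the clones deleted on musculus only (n = 42), −0.14 ± 0.16 in those deleted on both (n = 8) and 0.20 ± 0.19 in those deleted on castaneus only (n = 2). It was positive in 14 of 42, 1 of 8 and 2 of 2 clones, and this gap was not tested. In the domain it was 0.43 ± 0.14, 0.38 ± 0.13 and 0.36 ± 0.04 in the same order. The mean curve crossed 0 on the left at 49158.6 kb in the musculus-only class and at 49232.6 kb in the doubly deleted class. In the castaneus-only class it did so only at 48493.9 kb, within the Dppa domain. The run of at least 0.25 over the domain began at 49450 kb in all 3 classes. It ended at 50100 kb in the musculus-only and the doubly deleted class and at 50050 kb in the castaneus-only class.

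**Figure D2:**
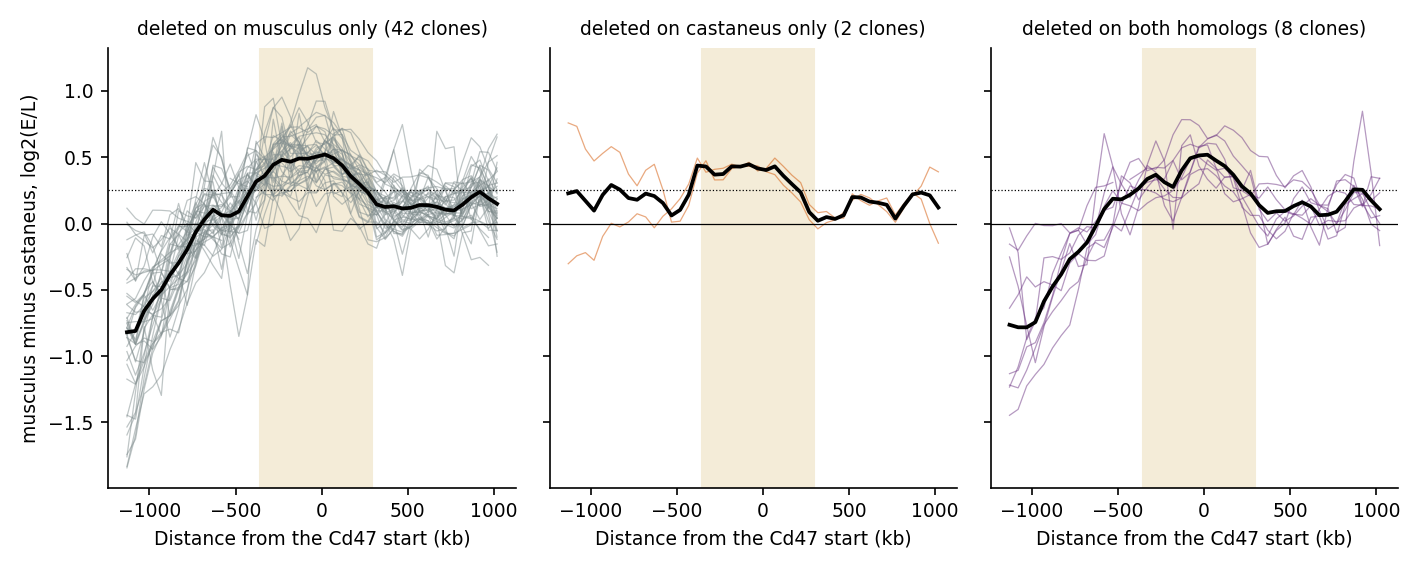
The musculus minus castaneus difference in log2(E/L) per window against the distance from the Cd47 start in kb, for clones deleted on musculus only (42), on castaneus only (2) and on both homologs (8). Thin lines are clones, the thick line is their mean, the dotted line marks 0.25 and the shaded strip is the domain. All 3 means are above 0.25 over most of the strip, and the castaneus-only mean alone stays above 0 through the left flank.

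The 2 clones deleted on castaneus only gave the same direction as the rest. In CTSS clone C4 the mean over the domain was −0.12 on musculus and −0.52 on castaneus, a difference of 0.39 that averages libraries at 0.18 and 0.61. In CR11.8k clone 50 it was −0.39 on musculus and −0.72 on castaneus, a difference of 0.33. Both differences lie inside the range of the 42 clones deleted on musculus only (0.09 to 0.76, median 0.44). They were lower by 0.07 on average, which was not distinguishable from the spread between clones (exact permutation test, two-sided, p = 0.477, adjusted p = 0.636 over 4 class comparisons, n = 2 against 42).

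In the 8 doubly deleted clones the difference was 0.25 in AOSN.B.COSN123 clone 3C.4, 0.26 in ATSS.BTSS.CTSS clone C4, 0.30 in A.B.COSN123 clone 5A.7 and 0.35 in ATSS.BTSS.CTSS clone A8. It was 0.37 in ATSS.BTSS.CTSS clone A1, 0.40 in AOSN.B.COSN123 clone 2A.2, 0.52 in AOSN.B.COSN123 clone 5A.6 and 0.63 in BTSS.CTSS clone C11. All 8 lie inside the range of the clones deleted on musculus only. Their mean was lower by 0.04, within the spread between clones (exact permutation p = 0.399, adjusted p = 0.636, n = 8 against 42).

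**Figure D3:**
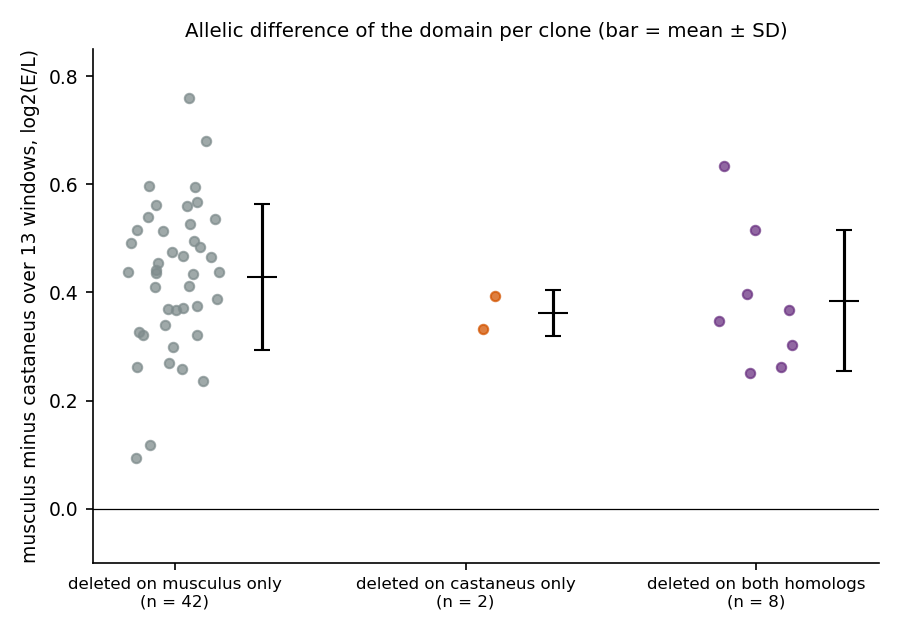
Mean musculus minus castaneus difference in log2(E/L) over the 13 windows, 1 point per clone, by deletion class. Bars are the mean and SD. Every clone is above 0, and the castaneus-only and doubly deleted clones lie between 0.25 and 0.63, within the range of the musculus-only clones.

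Each homolog was also compared by its own state. The musculus level was −0.13 ± 0.19 in the 51 clones with a deletion on musculus and −0.26 ± 0.19 in the 2 without (exact permutation p = 0.320, adjusted p = 0.636). These 2 are CTSS clone C4 (−0.12) and CR11.8k clone 50 (−0.39), and without CR11.8k clone 50 the gap of 0.13 was −0.0052. The castaneus level was −0.54 ± 0.12 in the 10 clones with a deletion on castaneus and −0.55 ± 0.22 in the 42 without (permutation test with 100000 resamples, p = 0.867, adjusted p = 0.867). None of the 4 class comparisons passed the threshold, with 2 clones in the smallest class.

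The lines A.B.COSN123 and AOSN.B.COSN123 allow a narrower comparison. Within each line the clones carry the same deletions on musculus and differ in whether B is also gone from castaneus. The lines themselves differ, since A.B.COSN123 lost all of A and AOSN.B.COSN123 only the AOSN site, and the test pooled both. The castaneus level of the domain was −0.54 in A.B.COSN123 clone 5A.7 and −0.63, −0.36 and −0.34 in AOSN.B.COSN123 clones 2A.2, 3C.4 and 5A.6, which lack B on both homologs. It was −0.70 in A.B.COSN123 clone 2E.1 and −0.92 and −0.48 in AOSN.B.COSN123 clones 1A.4 and 5A.2, which keep B on castaneus. The groups overlapped, with means of −0.47 ± 0.14 (SD, n = 4) and −0.70 ± 0.22 (SD, n = 3). The gap of 0.23, later in the clones that keep B, did not pass the exact permutation test (two-sided p = 0.143, where the design allows 0.0286 at best). Single clones moved it, to 0.12 without clone 1A.4 (exact permutation p = 0.4) and 0.35 without clone 5A.2 (exact permutation p = 0.133). At the Dppa domain itself (48200 to 48600 kb) the castaneus level of the same clones was 0.85 ± 0.17 against 1.02 ± 0.08, which was not tested.

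The 3 lowest clones were COSN12 clones C6 (0.09), D3 (0.12) and B6 (0.24), which are all the COSN12 clones. The clones of A.COSN12 (0.45 and 0.60) and AOSN.COSN12 (0.37 and 0.43), which carry the COSN12 deletion on musculus as well, were higher. The 3 highest were BTSS clone A10 (0.76), the 1 clone of its line, BTSS.CTSS clone H11 (0.68) and BTSS.CTSS clone C11 (0.63). The other clone of BTSS.CTSS, G3, was at 0.44, and the ATSS.BTSS.CTSS clones, which also lack BTSS on musculus, were at 0.26 to 0.37. In the COSN12 clones, in the same order, castaneus was at −0.22, −0.39 and −0.32, above the mean of all clones in each, and musculus was at −0.13, −0.27 and −0.08. In the high clones castaneus was at −0.86, −0.74 and −0.64 and musculus at −0.10, −0.06 and −0.01. Over the 18 lines with 2 or more clones the line means of the difference ran from 0.15 (COSN12) to 0.58 (BTSS.CTSS), with an SD of 0.10 between lines. These lines were chosen by their values, so no test is given.

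The allelic difference varied by less between clones of a line than the level of either homolog did. The pooled SD of the difference over the domain was 0.09 between clones of a cell line (26 degrees of freedom) and 0.16 between replicate libraries of a clone (13 degrees of freedom). The pooled SD between clones was 0.15 on musculus and 0.14 on castaneus, and between replicate libraries 0.11 on musculus and 0.12 on castaneus. The order on castaneus turned over the 8 windows from 49650 to 50050 kb (0.15 between clones, 0.16 between libraries) and with the median absolute difference (0.10 between clones, 0.14 between libraries). These SDs were not tested against each other. Per window, the pooled SD of the difference between clones had a median of 0.15 over the 13 windows, against 0.15 over all autosomal windows. It was lowest at 50000 kb (0.09), where 2.51% of autosomal windows had a lower SD, and 0.12 in the Cd47 window (15.3% lower). Between replicate libraries the SD was highest at 49750 kb (0.26), where 94.9% of windows had a lower SD, and it was 0.23 in the Cd47 window (87.3% lower).

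The widest gaps between replicate libraries were in 4 clones. Among the 11 clones with 2 or more libraries, the gap between the lowest and the highest difference was 0.01 to 0.43, with a median of 0.11. In COSN123 clone A10 the 4 libraries had differences of 0.62, 0.47, 0.37 and 0.19 for replicates 1, 2, 3 and 4. Their musculus levels lay between −0.20 and −0.09 and their castaneus levels between −0.70 and −0.38, so the libraries lay further apart on castaneus. In CTSS clone C4 the difference was 0.18 in replicate 1 and 0.61 in replicate 2, with castaneus at −0.35 and −0.68 and musculus at −0.17 and −0.08. In CTSS clone C12 it was 0.30 in replicate 1 and 0.65 in replicate 2, with castaneus at −0.47 and −0.64 and musculus at −0.17 and −0.04. This replicate 2 and BTSS.CTSS clone G3 lack a castaneus value in 1 window, so that their difference covers fewer windows than their musculus level, and in replicate 2 the levels alone are 0.59 apart. Replicate 2 had the larger difference in both CTSS clones, 1 deleted on castaneus and 1 on musculus. In AOSN.B.COSN123 clone 1A.4 the replicates gave 0.59 and 0.29, and the gap in each of the other 7 clones was 0.12 or less. The most alike was AOSN.B.COSN123 clone 5A.6, with 0.52 and 0.51.

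**Figure D4:**
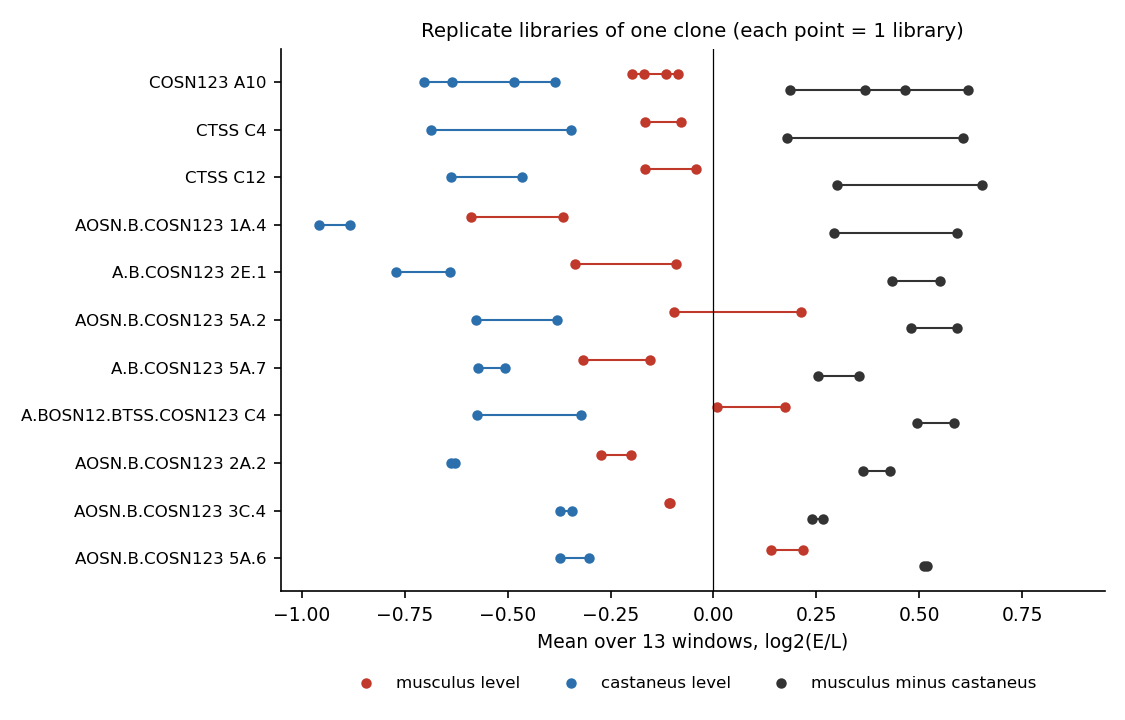
Level of the musculus homolog, of the castaneus homolog and their difference in log2(E/L), each a mean over the 13 windows, for the 11 clones with 2 or more libraries. Points are libraries and lines join those of 1 clone. The widest gaps in the difference are in COSN123 A10, CTSS C4 and CTSS C12. In 1 library of CTSS C12, castaneus and the difference lack 1 window.

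For 3 clones the table held 2 sets of columns under 1 labelled library, and these were averaged. The column names number the sets as replicates, but they were not counted in the spread between replicate libraries above. Among the 11 clones counted there, the widest gaps in level were 0.31 on musculus and 0.34 on castaneus. In Z.AOSN.COSN123 clone A9 musculus was at 0.37 in one set and −0.01 in the other and castaneus at −0.04 and −0.38, while the difference was 0.40 and 0.38. In clone B4 of the same line musculus was at −0.13 and −0.26 and castaneus at −0.47 and −0.60, with a difference of 0.34 in both sets. In CR11.8k clone 50 both sets were within 0.06 of each other on either homolog. The differences of the 3 clones moved by 0.034 or less between sets.

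Both homologs varied together between clones. Across 52 clones the musculus level of the domain correlated with the castaneus level, with Pearson's r of 0.78 (permutation p = 1e-05, the smallest that 100000 resamples can give; adjusted p = 3e-05 over 3 relations) and Spearman's rho of 0.67 (permutation p = 1e-05). Without the 2 clones farthest from the median of the musculus level, both of line CL20k, r was 0.65. Both levels come from the same library and share its sorting and normalization. The median r between the homologs over all tested windows was 0.58, against a median of 0.74 over the 13 windows, or 0.62 without the CL20k clones. In the Cd47 window r was 0.81, and 11.9% of windows had a higher one. Without the CL20k clones r was 0.70 there, and 30.0% of windows had a higher one.

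**Figure D5:**
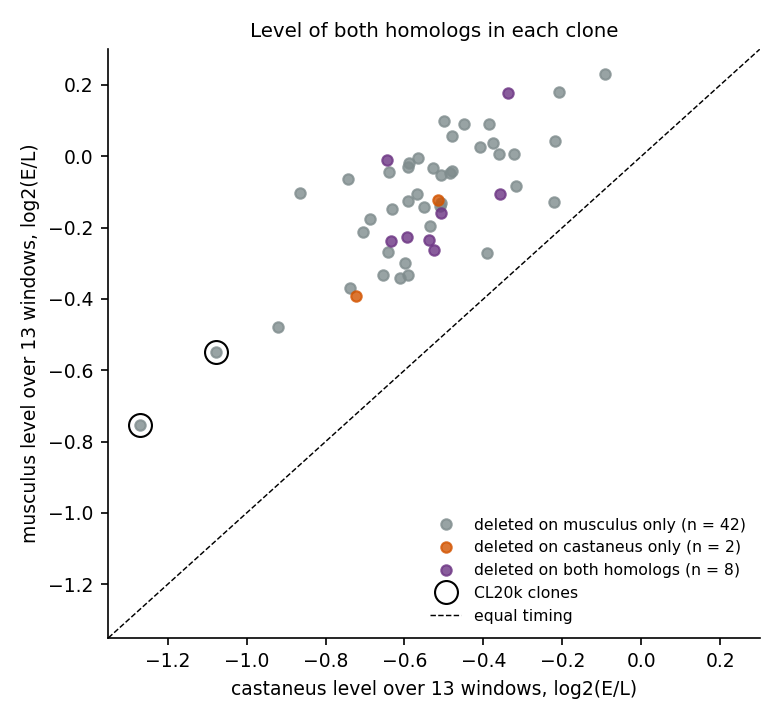
Level of the musculus homolog against that of the castaneus homolog in log2(E/L), each a mean over the 13 windows, for 52 clones. The dashed line marks equal timing. All points lie above it, and both CL20k clones (circled) lie at the late end of both axes.

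The 2 clones of CL20k, which lost the left part of C on musculus, stood apart from the others in level and were singled out after their values were seen. In clone 49 the domain was at −0.55 on musculus and −1.08 on castaneus, and in clone 85 at −0.75 and −1.27. The mean of the other clones was −0.11 on musculus and −0.52 on castaneus. Clone 85 deviated from it by −0.64 on musculus and −0.75 on castaneus, and 1.05% and 0.415% of all tested windows deviated further down in that clone. In clone 49 the deviations were −0.44 and −0.55, with 5.68% and 2.61% of windows further down. The right flank was also later in both clones, with deviations of −0.59 and −0.58 on musculus and −0.56 and −0.62 on castaneus, and those of the left flank were 0.01 to 0.20. The deviations were on the intact castaneus homolog as well as on the deleted one. The allelic difference, 0.53 in clone 49 and 0.52 in clone 85, was inside the range of the others. Each of these clones has 1 library.

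No relation of the level to the timing of the Dppa domain on the same homolog passed the test. Across the 43 clones deleted on musculus only, the musculus level at 48200 to 48600 kb (−0.82 to 1.21) and the musculus level of the Ift57 and Cd47 domain had an r of −0.05 (permutation p = 0.733, adjusted p = 0.733) and a rho of −0.02 (p = 0.880). Without the 2 clones farthest from the median r was −0.03. Against the castaneus level of the domain r was 0.16 (n = 42, permutation p = 0.315, adjusted p = 0.473) and rho 0.28 (p = 0.0735, adjusted p = 0.110), and r was 0.16 without the 2 farthest. Without the CL20k clones the relation with castaneus had an r of 0.32 (n = 40, permutation p = 0.0481, adjusted p = 0.0722) and a rho of 0.36 (permutation p = 0.0249, adjusted p = 0.0374), of which only rho passed after adjustment. This setting was added after the data were seen.

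Over clones, the musculus minus castaneus difference of the Cd47 window went with that of the Ift57 window at an r of 0.52 (n = 52) and with that of the Bbx window at 0.21, while for the Dppa4 window r was −0.05. Neighbouring windows share smoothed values. Among the 18340 protein-coding genes more than 2 Mb away, the 5 whose window was most like the Cd47 window were Atxn1 (r = 0.59, n = 50), Dsc3 (0.58, n = 52), Rgs10 (0.57, n = 47), Mindy3 (0.57, n = 52) and Prss23 (0.56, n = 52). They encode ataxin-1, a desmosomal cadherin, a regulator of G protein signalling, a deubiquitinase and a serine protease. Their mean musculus minus castaneus differences were 0.51, 0.53, 0.05, 0.23 and 0.34. The highest positive r over all these genes (0.59) was close in size to the most negative (−0.57), and the median was 0.02.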

How the data were processed

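E/L Repli-seq of clones of F121-9, whose musculus homolog is of strain 129, was analysed. Per the labels and the methods, the authors trimmed reads (Trim Galore, cutadapt), aligned them with bowtie2 to N-masked mm10, split them by homolog (SNPsplit), counted 50 kb windows (bedtools), and scaled, quantile-normalized and loess-smoothed (300 kb) the ratios. Versions are not given in the sources used here. The deposited values are log2 ratios of early over late reads, so the depth is unknown. A value was present in 73.8% to 93.8% of windows per profile. At least 1 chromosome had no value on 1 homolog in 13 of 66 libraries. All 138 columns were used. Another 5 libraries in the labels were not analysed here.

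Replicate libraries were averaged per clone. The difference was tested per window with limma 3.58.1 (R 4.3.3; intercept only, at least 40 clones, Benjamini-Hochberg over 39541 windows), tested on simulated data. Single values used permutation tests in Python 3.11.15 (numpy 2.4.6, pandas 2.3.3). The domain counts as 1 value, since smoothing links its windows. The table names the homologs only as genomes, and they were read as musculus and castaneus by setting the homolog that a column name marks as deleted against the genotype table of the study. 1 clone is not in that table.

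Genes and clones named are the genes in the domain, the protein-coding genes of 48000 to 51000 kb, the 3 highest and 3 lowest clones, all clones edited on castaneus, and the 5 genes more than 2 Mb away most like Cd47. The domain, lists and tests were chosen with earlier results of these data known.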

Additional observations from a re-analysis of the deposited data

How the results depend on the processing

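With libraries as units, clones deleted on musculus only, clones with complete chromosomes, centring on the autosomal median, no minimum above 2 clones, or any 1 of 26 cell lines left out, 12 of 13 windows were called earlier on musculus, and their means stayed between 0.28 and 0.53. Over all windows 3689 to 3819 were then called earlier on musculus and 4438 to 4642 earlier on castaneus with a line left out. At a size of at least 0.5 the counts were 2 of 13, 1070 and 1309. The extent was 1250 kb at 0.10 and 100 kb at 0.5.

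The 4 class comparisons passed no threshold under the alternatives run, and small gaps changed sign. The castaneus level, deleted minus intact, was 0.01, and it was −0.0022 over the 8 windows of 49650 to 50050 kb and −0.019 without the CL20k clones, which was added after seeing the data. Leaving out a clone gave −0.010 to 0.033, with −0.0078 without AOSN.B.COSN123 clone 3C.4 and −0.010 without clone 5A.6. The musculus level, deleted minus intact, was −0.0052 to 0.26 with 1 of the 2 intact clones left out. With 1 clone left out, the mean allelic difference of castaneus-only clones minus that of musculus-only clones ranged from −0.097 to −0.036. For doubly deleted clones minus musculus-only clones it ranged from −0.080 to −0.025. The B comparison ranged from 0.12 to 0.35 (exact permutation p = 0.133 to 0.4). With libraries and the replicate number as a block, the gap was 0.23 with an exact permutation p = 0.0351. Replicates of the same number showed little common deviation, with a median correlation of 0.01 over 21 pairs of clones (−0.33 to 0.23). The correlation was over 0.1 in 5 of 21 pairs. Whether the number marks a shared run cannot be told from this, and the block counts both libraries of a clone as units. The relation of the musculus level at Dppa to that of the domain had an r of 0.027 without the CL20k clones. The cause of these shifts was not tested. Depth is unknown, and few clones were edited on castaneus.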
